A study of Homo sapiens with 6 samples.

Results

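The mRNAs described here encode the eIF4 family of translation initiation factors and 2 proteins that hold members of it back: EIF4A1, EIF4A2, EIF4A3, EIF4B, EIF4E, EIF4G1, EIF4G2, EIF4H, EIF4EBP1 and PDCD4. They were taken by gene symbol, and all 10 were found among the 13668 protein-coding genes listed for at least 1 of the cell lines. eIF4B was cross-linked to RNA with UV light in living cells and immunoprecipitated, and the point at which each cDNA stopped was read by sequencing (iCLIP). A count is thus a cDNA that stopped next to a cross-linked base, and it is assigned to that base. The cells were DoHH-2, a line from a diffuse large B-cell lymphoma, and GM01953, a control B-cell line, with no treatment given for either. The 4 replicates of DoHH-2 and the 2 of GM01953 were each pooled into 1 table. No spread between replicates could therefore be computed, and every interval below is a 95% interval that covers counting error only.

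The factors of this family act at the first step of protein synthesis. eIF4E holds the 5′ cap of the mRNA, eIF4G is the scaffold that joins it to the ribosome, and eIF4A is the RNA helicase that opens structure in the 5′ UTR so that the small ribosomal subunit can scan to the start codon. eIF4B and the related eIF4H are RNA-binding proteins that raise the activity of eIF4A. 4E-BP1, the product of EIF4EBP1, holds eIF4E away from eIF4G, and PDCD4 holds eIF4A away from RNA. The data give how many cross-links of eIF4B lay on the mRNAs of these proteins, and where along them.

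Bases with many cross-links are shown here with the sequence around them, since the results below turn on where eIF4B sat. For EIF4G2, EIF4A3, EIF4G1 and EIF4H they are the highest base of the mRNA in DoHH-2 (in EIF4H tied with another), and for EIF4A1 and EIF4A2 a pair of aligned bases. Each run reads 5′ to 3′ in the sense of the mRNA, and the capital letter in the cross-link windows is the cross-linked base.
EIF4G2, 5′ UTR: tctcggtgaaggtatTtcatttctcctgtc
EIF4A3, 3′ UTR: ctctcttttcttattTacatgtaaataata
EIF4G1, 3′ UTR: ctggggtccttttttTtattttctgaaaat
EIF4H, 5′ UTR to start codon: tcctctcggagcggaGacggcaaatggcgg
EIF4A1, coding sequence: attgttgacagctttGatgacatgaacctc
EIF4A2, coding sequence, aligned base: attgttgataactttGatgatatgaattta
The EIF4A3 window is chr17:80135303-80135332 on the minus strand, that of EIF4G1 is chr3:184335197-184335226 and that of EIF4H is chr7:74174361-74174390, both on the plus strand, in GRCh38. The EIF4A1 and EIF4A2 windows are chr17:7574561-7574590 and chr3:186784579-186784608, both on the plus strand. The EIF4G2 window crosses the junction of exons 1 and 2, and its capital is position 10807377 of chromosome 11, on the minus strand.

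DoHH-2 held 2033156 counts at 1179243 positions and GM01953 held 167197 counts at 78474 positions, so DoHH-2 was 12.2 times deeper. A 0 in GM01953 at a single base is therefore not read as an absence of cross-links. All 7 B-cell markers checked were present in both lines, with 2542 and 841 counts in sum, and the 7 markers of T cells, myeloid, erythroid and epithelial cells and fibroblasts held 2 counts in DoHH-2 and 0 in GM01953. Levels are given as CPM, the counts of a gene scaled to 1000000 counts of the line, and levels compared between genes as CPM per kb of the MANE Select mRNA, the reference transcript of each gene shared by Ensembl and RefSeq. The mRNA level is not part of these tables, so a higher level of an mRNA and more cross-linking per mRNA cannot be told apart.

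The 10 genes, introns included, held 6423 counts at 3646 positions in DoHH-2, which was 0.316% of all counts (0.308 to 0.324). They held 424 counts at 202 positions in GM01953, which was 0.254% (0.230 to 0.279). Over whole genes the share was 1.25 times higher in DoHH-2 (1.13 to 1.38). On MANE Select exons alone the ratio of the shares was 1.10, without an interval, and is not read as higher in DoHH-2. EIF4G2 alone gave 205 of the 424 counts in GM01953. Without it the other 9 held 0.237% in DoHH-2 and 0.131% in GM01953, and the ratio was 1.81 (1.58 to 2.08). An mRNA was called bound when positions with an FDR below 0.05 held more than 20 counts. By that rule 9 of the 10 were bound in DoHH-2, where 33.3% of all coding genes listed were bound. EIF4E was the exception. In GM01953 only EIF4G1 and EIF4G2 of the 10 were bound, where 8.34% of coding genes were.

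**Figure D1:**
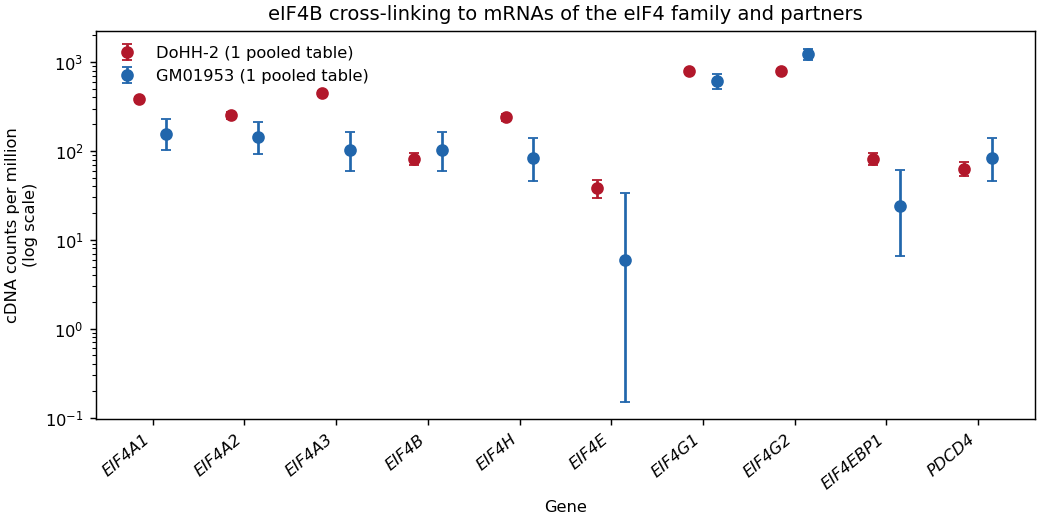
CPM on a log axis for each of the 10 genes in DoHH-2 (red) and GM01953 (blue). Points are the pooled value of a cell line and bars the 95% Poisson interval. EIF4G1 and EIF4G2 lie highest in both lines, and EIF4E lies lowest in both, at 37.9 and 5.98 CPM.

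Per kb of mRNA, EIF4G2 had the highest level in both lines, 191 CPM per kb (181 to 201) in DoHH-2 and 312 (270 to 359) in GM01953. EIF4A1 followed in DoHH-2 at 174 (161 to 188), then EIF4A3 at 159 (149 to 171) and EIF4G1 at 137 (130 to 144). The intervals of EIF4G2 and EIF4A1 overlapped, as did those of EIF4A1 and EIF4A3, while EIF4G1 lay below EIF4A3. EIF4EBP1 at 92.8, EIF4A2 at 88.1 and EIF4H at 77.7 formed a middle group in which neighbours overlapped. EIF4B at 16.5 and PDCD4 at 14.4 overlapped far below it, and EIF4E was last at 3.65 (2.16 to 5.77). The median over all coding genes with a count on their exons was 6.69 in DoHH-2 and 9.36 in GM01953, and 7 of the 10 in DoHH-2 and 6 in GM01953 were above the upper quartile. In GM01953 only EIF4G2 stood clear of its neighbour, and every later pair in the order overlapped.

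Between the lines, 5 of the 10 were at least 2-fold higher in DoHH-2 and 0 were at least 2-fold higher in GM01953. Of all coding genes with at least 20 counts in sum, 24.3% were 2-fold higher in DoHH-2 and 14.2% in GM01953. The 5 were EIF4A1, EIF4A3, EIF4E (on 1 count in GM01953), EIF4H and EIF4EBP1 (on 4 counts in GM01953). The whole interval lay above 2-fold for 1 of them, EIF4A3, and it lay above 1 for 7 of the 10. Over distinct positions in place of counts, the log2 ratios of EIF4A1 and EIF4H were 0.43 and 0.78, short of 2-fold, and the other 3 stayed past it. At positions with an FDR below 0.05 the log2 ratios of EIF4A1, EIF4A3 and EIF4H were 2.81, 3.41 and 2.51, against 1.29, 2.14 and 1.51 over all positions. The former rest on 8, 7 and 6 counts in GM01953, against 536, 712 and 326 in DoHH-2. For these genes the threshold kept 30.8 to 42.9% of counts in GM01953 and 67.4 to 78.2% in DoHH-2. Without the highest position of each gene in each line EIF4A2 passed 2-fold, at 1.04, while EIF4E fell short of it, at 0.88. The 1 count of EIF4E in GM01953 was then removed, so its value was taken at the floor of 3 counts. The number past 2-fold in DoHH-2 stayed at 5. EIF4G2 was the 1 gene with an interval below 1, and the intervals of EIF4B and PDCD4 held 1. The median ratio of the 10 was 2.10, against 1.15 over all coding genes tested with those at 0 in GM01953 set to the floor of 3 counts.

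**Figure D2:**
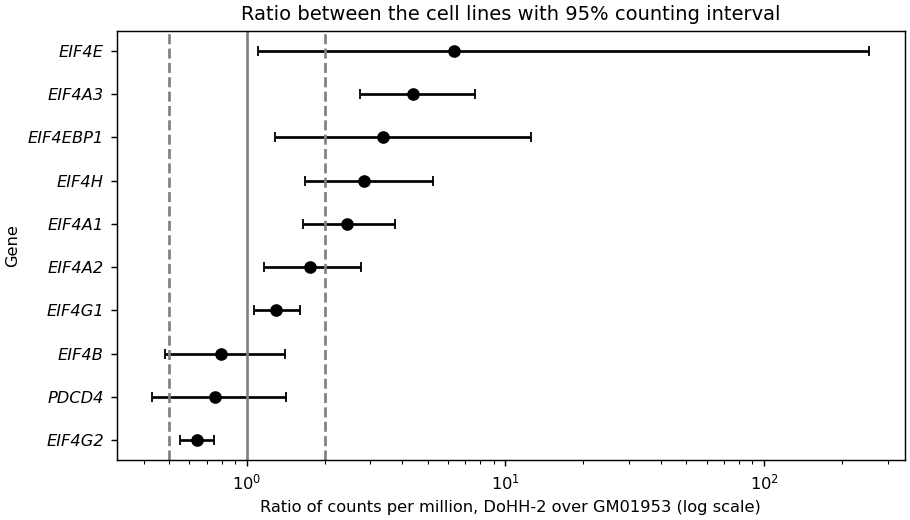
Ratio of the CPM of DoHH-2 over GM01953 on a log axis, with the 95% interval from counting error. The solid line marks equal levels and the dashed lines 2-fold in each direction. EIF4A3 is the gene whose whole interval lies beyond 2-fold, and EIF4G2 the gene whose interval lies below 1.

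The mRNAs of the 3 helicases all had intervals above 1. EIF4A1 (ENSG00000161960, chr17:7572824-7579006, plus strand, 11 exons) encodes the main cytoplasmic eIF4A. It held 771 counts in DoHH-2 (379 CPM) and 26 in GM01953 (156 CPM). The ratio was 2.44 (1.65 to 3.76). Of the DoHH-2 counts, 553 (71.7%, 68.4 to 74.9) were in the coding sequence, 62 in the 3′ UTR and 7 in the 5′ UTR of 17 nt. All 771 counts lay at positions that the table also lists for another gene, mostly the gene listed as RP11-186B7.4 (766 counts) and the SENP3-EIF4A1 read-through gene (737), whose reads cannot be told from those of EIF4A1. Small nucleolar RNAs in the introns of EIF4A1 took 72 of its counts, 51 of them on SNORA48.

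Most of the EIF4A1 cross-links were early in the coding sequence, where the first 500 of 1221 nt held 445 of the 553 counts (80.5%) in DoHH-2. The highest base was nt 208 of the coding sequence, at position 7575121, with 23 counts in DoHH-2 and 0 in GM01953. The densest 30 nt, nt 99 to 128 of the coding sequence, held 120 counts, 21.7% of those in the coding sequence, where an even spread would give 13.6. The same stretch held 5 of the 20 coding counts of GM01953. The highest base in GM01953, nt 942 with 4 counts, held 19 in DoHH-2.

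EIF4A2 (ENSG00000156976, chr3:186783205-186789897, plus strand, 11 exons) encodes the second cytoplasmic eIF4A, whose protein is 90.1% identical to that of EIF4A1 over 406 and 407 residues. It held 513 counts in DoHH-2 (252 CPM) and 24 in GM01953 (144 CPM). The ratio was 1.76 (1.17 to 2.77), which did not reach 2-fold. Fewer of its counts than of those of EIF4A1 were in the coding sequence, with 212 (41.3%) there, 85 (16.6%) in the 3′ UTR and 41 (7.99%) in a 5′ UTR of 34 nt. A further 175 counts were on no exon of the MANE Select mRNA, of which 118 lay on exons of other EIF4A2 transcripts and 35 on small nucleolar RNAs of its introns, led by SNORD2 with 11. Its highest base, position 186783888 with 14 counts, was in intron 1.

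The coding sequences of EIF4A1 and EIF4A2 are 76.6% identical, and some of their cross-linked bases aligned. Of the coding positions with a count in DoHH-2, 40 aligned to each other, which was 20.7% of those of EIF4A1 and 26.3% of those of EIF4A2. Such positions were not particular to this pair. EIF4A1 shared 33 (17.1% of its own) with EIF4A3 and EIF4A2 shared 35 (23.0%), at 64.6 and 65.5% identity. Counts lay on 193 of 1221 coding nt in EIF4A1, 152 of 1224 in EIF4A2 and 255 of 1236 in EIF4A3. At such coverage some positions align without any shared site. How many was not computed, so these overlaps are not read as shared sites. The best pair of EIF4A1 and EIF4A2 was nt 103 of EIF4A1 with 13 counts and nt 106 of EIF4A2 with 9, the capitals in the aligned windows shown above. The windows differ at 6 of 30 bases, and the 40 nt downstream, where the read lies, at 9. The stretch of EIF4A2 aligned with the densest 30 nt of EIF4A1 held 35 of its 212 coding counts (16.5%), where an even spread would give 5.20. In GM01953 it held 0 of 15. These stretches and the alignment were chosen after the values were seen.

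EIF4A3 (ENSG00000141543, chr17:80134369-80147151, minus strand, 12 exons) encodes the nuclear family member that is a core part of the exon junction complex. It had 911 counts in DoHH-2 (448 CPM) and 17 in GM01953 (102 CPM). The ratio of 4.41 (2.74 to 7.60) was the highest of those that rest on more than 1 count in GM01953. The coding sequence held 475 of the DoHH-2 counts (52.1%), the 3′ UTR 271 (29.7%) and the 5′ UTR 72 (7.90%).

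The 3′ UTR counts of EIF4A3 were gathered in a short stretch. The highest base was 173 nt past the stop codon, at position 80135317, with 26 counts in DoHH-2. The 30 nt from 161 to 190 nt past the stop held 150 counts, 18.3% of all exon counts of the gene, where an even spread would give 9.72. GM01953 held 1 count in that stretch. The last cross-link of DoHH-2 was 274 nt past the stop, and the remaining 847 nt of the annotated 3′ UTR held none.

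**Figure D3:**
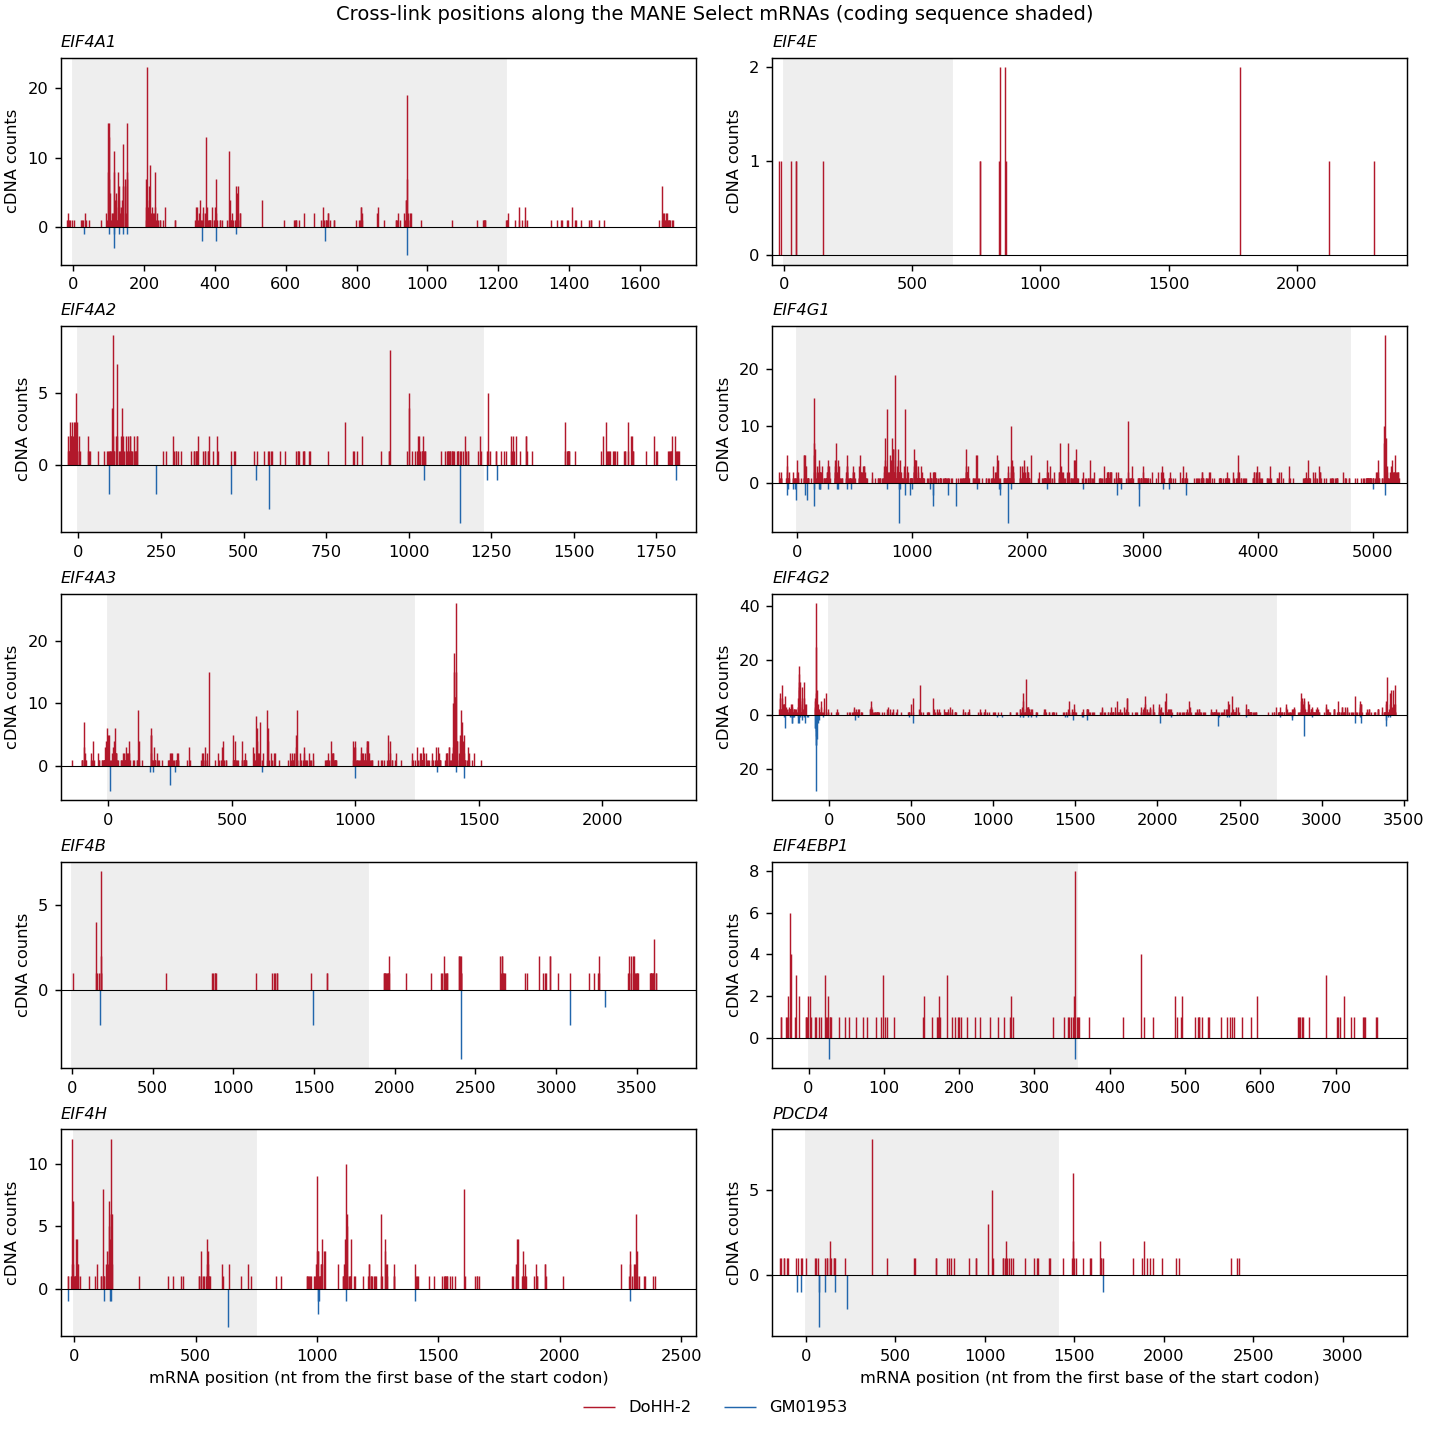
Counts at each cross-linked base along the 10 MANE Select mRNAs, in nt from the first base of the start codon, with DoHH-2 drawn upwards in red, GM01953 downwards in blue and the coding sequence shaded. The 5′ UTR peak of EIF4G2 at 82 nt before the start codon is seen in both lines, and the 3′ UTR peak of EIF4A3 reaches 26 counts in DoHH-2.

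The mRNA of eIF4B itself was among the less cross-linked of the 10. EIF4B (ENSG00000063046, chr12:53006282-53042215, plus strand, 15 exons) had 165 counts in DoHH-2 (81.2 CPM) and 17 in GM01953 (102 CPM). The ratio was 0.798 (0.484 to 1.40), and its interval held 1. Its direction turned with the positions used. The log2 ratio was -0.33 over all counts, -1.19 at positions with an FDR below 0.05, 0.32 over distinct positions and 0.11 without the highest position. In DoHH-2 the 3′ UTR held 95 counts (57.6%, 49.7 to 65.2), the coding sequence 34 (20.6%) and the 5′ UTR of 28 nt 0 of 165. By the floor of 3 counts that allows a share of up to 1.82%, and the exact upper limit is 2.21%. The 3′ UTR counts were scattered, and no base there had more than 3 in DoHH-2. The highest base was nt 181 of the coding sequence, with 7 counts in DoHH-2, and the 30 nt that end on nt 182 held 16 of the 129 exon counts. In GM01953, 5 of the 17 counts lay on 1 base of intron 10 and 4 on a base 575 nt past the stop.

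EIF4H (ENSG00000106682, chr7:74174231-74197122, plus strand, 7 exons) encodes the smaller relative of eIF4B. It had 484 counts in DoHH-2 (238 CPM) and 14 in GM01953 (83.7 CPM). The ratio was 2.84 (1.68 to 5.24). As in EIF4B, the 3′ UTR held the most counts, 238 (49.2%), followed by the coding sequence with 138 (28.5%). EIF4H was also cross-linked around its start codon. The base 8 nt before the start codon, in the window shown above, was 1 of 2 highest bases with 12 counts in DoHH-2 and 0 in GM01953. The region from the cap to 50 nt past the start codon held 49 counts in 81 nt, or 605 counts per kb, against 179 in the rest of the coding sequence and 137 in the 3′ UTR. The same region of EIF4B held 1 count in 81 nt, or 12.3 per kb, against 19.1 in the rest of its coding sequence. With 129 exon counts in EIF4B, that 1 count is too few to show a difference between the genes.

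The cap-binding protein eIF4E had the least cross-linked mRNA of the 10. EIF4E (ENSG00000151247, chr4:98879276-98929133, minus strand, 7 exons) had 77 counts in DoHH-2 (37.9 CPM) and 1 in GM01953 (5.98 CPM). The ratio of 6.33 rests on that 1 count, and its interval ran from 1.10 to 253. Only 18 of the 77 counts lay on exons of the mRNA, and 52 (67.5%) lay in introns of every annotated transcript. The 2 highest bases, with 10 and 8 counts, were both in intron 2. On exons GM01953 held 0 counts, and at its depth the floor of 3 counts is 17.9 CPM, so no ratio can be given for the mature mRNA.

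EIF4G1 (ENSG00000114867, chr3:184314495-184335358, plus strand, 33 exons) encodes the main scaffold. It had 1612 counts at 972 positions in DoHH-2 and 102 counts at 49 positions in GM01953, or 793 and 610.1 CPM. The ratio was 1.30 (1.06 to 1.60), the nearest to equal of those with an interval above 1. Most were in the coding sequence, with 1300 counts (80.6%, 78.6 to 82.5) in DoHH-2 and 73 (71.6%, 61.8 to 80.1) in GM01953. The densest 30 nt held 85 counts, where an even spread over this long mRNA would give 8.36, so they were 10.2 times as dense. That was near the median of 10.1 over 1293 coding genes with at least 200 exon counts (quartiles 7.15 and 14.5) and near the 11.3 of EIF4A1, while EIF4A3 had 15.4. The stretch of EIF4G1 lay in the 3′ UTR around the run of thymines shown above. Its capital, 304 nt past the stop codon at position 184335212, held 26 counts in DoHH-2. In GM01953 it held 0, with 2 counts within 5 nt of it. The highest base of GM01953, with 12 of its 102 counts, was in intron 21 and held 0 in DoHH-2.

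Among 1287 coding genes with at least 200 exon counts in DoHH-2, the genes whose spread over 5 regions of the mRNA was nearest to that of EIF4G1 were KDM3A, NECTIN1 and ANAPC11. Their shares of summed density differed from those of EIF4G1 by 17.1, 17.7 and 19.9 percentage points in sum. The 5 regions were the 5′ UTR, 50 nt to each side of the start codon, the coding sequence, 50 nt to each side of the stop codon and the 3′ UTR, and EIF4G1 had 20.3, 16.8, 22.6, 4.81 and 35.5% of its summed density in them.

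EIF4G2 (ENSG00000110321, chr11:10797050-10808940, minus strand, 22 exons) encodes DAP5, a scaffold without the binding site for eIF4E, and its coding sequence begins with GTG in place of ATG. It had 1598 counts at 811 positions in DoHH-2 and 205 counts at 80 positions in GM01953. These were 786 and 1226 CPM, so its level was 1.56 times higher in GM01953 (1.34 to 1.81). It was the 92nd most cross-linked coding gene of 13153 in DoHH-2 and the 47th of 10148 in GM01953.

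The 5′ UTR of EIF4G2, 308 nt long, held a different share of counts in each line. It held 134 of the 205 counts in GM01953 (65.4%, 58.4 to 71.9) and 448 of 1598 in DoHH-2 (28.0%, 25.8 to 30.3). The highest base was the same in both lines, the capital in the window shown above, 82 nt upstream of the start codon, with 41 counts in DoHH-2 and 28 in GM01953. The 30 nt from 89 to 60 nt upstream held 97 counts in GM01953, 47.3% of the gene, and 124 in DoHH-2, 7.76%. Over the 252 coding genes with at least 50 exon counts in GM01953, the densest 30 nt held a median of 24.6% of exon counts (quartiles 17.3 and 38.9%), and in EIF4G2 they held 49.0%. Against an even spread the stretch was 62.0 times as dense, where the median of these genes was 14.7 (quartiles 9.31 and 28.6). As a level this stretch was 580.2 CPM in GM01953 and 61.0 in DoHH-2, 9.51 times higher in GM01953 (7.22 to 12.5). Outside it EIF4G2 had 646 CPM in GM01953 and 725 in DoHH-2. The ratio was then 1.12 (0.923 to 1.38), and its interval held 1. The stretch was chosen as the densest of GM01953, so its own ratio is a description.

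In DoHH-2 a separate stretch held about as many counts. The 30 nt from 192 to 163 nt upstream of the EIF4G2 start codon held 125 counts in DoHH-2, with 18 on the highest base 181 nt upstream, and 11 in GM01953. These were 8.48% and 5.56% of the exon counts of the gene. DoHH-2 was 12.2 times deeper, so the stretch is not read as particular to it. Exon 1, which holds nt 308 to 87 upstream, had 290 counts in DoHH-2 (18.1% of the gene) and 36 in GM01953 (17.6%). Exon 2, with the remaining 86 nt, had 158 (9.89%) and 98 (47.8%). The share of exon 1 was thus close in both lines, and that of exon 2 was not. All 97 counts of the dense stretch in GM01953 lay in exon 2.

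The mRNAs of both inhibitors held fewer counts in DoHH-2 than those of the scaffolds and helicases, but more than the median coding gene, which had 55. EIF4EBP1 (ENSG00000187840, 3 exons) had 164 counts in DoHH-2 (80.7 CPM) and 4 in GM01953 (23.9 CPM), with a ratio of 3.37 and a wide interval (1.29 to 12.5). Its mRNA is the shortest of the 10, at 827 nt, which puts it in the middle group per kb. In DoHH-2 the coding sequence held 75 counts (45.7%), the 3′ UTR 53 (32.3%) and the 5′ UTR of 40 nt 28 (17.1%). The densest 30 nt were the last 30 nt of the 5′ UTR, with 26 counts. The highest base, nt 355 of the 357 in the coding sequence, held 8 counts in DoHH-2 and 1 in GM01953.

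PDCD4 (ENSG00000150593, chr10:110871795-110900006, plus strand, 12 exons) had 128 counts in DoHH-2 (63.0 CPM) and 14 in GM01953 (83.7 CPM). The ratio was 0.752 (0.432 to 1.41), and its interval held 1. The coding sequence held 59 of the DoHH-2 counts (46.1%) and the 3′ UTR 33 (25.8%). Its highest base, nt 371 of the coding sequence, had 8 counts in DoHH-2 and 0 in GM01953. Of the 11 positions of GM01953, 1 also held a count in DoHH-2. The 3′ UTR is 1918 nt long, and the last cross-link of DoHH-2 was 1011 nt past the stop.

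Over the 10 mRNAs, the coding sequence held 54.4% of counts in DoHH-2 (53.2 to 55.6), against 42.2% over all coding genes. EIF4G1 gave 1300 of the 3493 coding counts. Without it the share was 45.6% (44.2 to 47.0), and 5 of the 10 genes had a lower share than all coding genes together. The 3′ UTR held 21.8% against 28.0%, the 5′ UTR 10.5% against 8.72%, and 13.3% against 21.1% lay on no exon of the MANE Select mRNA. In GM01953 the 5′ UTR held 34.2% of counts (29.7 to 38.9) against 13.3% over all coding genes, but 134 of those 145 counts were of EIF4G2. Without EIF4G2 the 5′ UTR held 5.02% in GM01953 (2.53 to 8.81) and 4.64% in DoHH-2 (4.07 to 5.27). The coding sequence of the other 9 then held 64.4% in GM01953 and 59.1% in DoHH-2. Leaving EIF4G1 or EIF4G2 out was a choice made after the data were seen.

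The same bases were often hit in both lines, though not in every gene. Of the 202 positions of GM01953, 117 (57.9%) also held a count in DoHH-2, which was 3.21% of the 3646 positions of DoHH-2. Over all coding genes the shares were 32.9% and 2.06%. EIF4G2 gave 58 of the 117 positions and EIF4G1 30. At the shared positions lay 88.3% of the EIF4G2 counts of GM01953, 52.9% of those of EIF4G1 and 20.8% of those of EIF4A2.

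The cross-linked base was most often a uridine. On exons of the 10 mRNAs, U held 44.6% of counts in DoHH-2 (43.3 to 45.9), against 42.4% over all coding genes, and 25.8% of the bases of these mRNAs are U. EIF4G2 and EIF4B had the highest shares, 55.0 and 53.5%, and EIF4EBP1, with 15.5% U in its mRNA, the lowest at 26.3%. In GM01953 U held 52.8% (47.6 to 57.9) against 39.9% over all coding genes, with EIF4G2 at 64.1%. Without EIF4G2 the other 9 held 40.9% in DoHH-2 (39.4 to 42.4) and 40.1% in GM01953 (32.8 to 47.7), no more than over all coding genes in DoHH-2 and close to them in GM01953. UV light cross-links uridines most readily, so the base at a cross-link is not by itself a preference of the protein.

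The maps hold few counts just upstream of exon junctions. In exons of at least 100 nt, the last 40 nt before a junction held 96 counts in the 10 mRNAs in DoHH-2, and the 40 nt before those held 939. The ratio was 0.102, and over all coding genes it was 0.114, with 15411 counts against 134857. In GM01953 the counts were 7 and 41 in the 10 mRNAs, and the ratio over all coding genes was 0.161. The first 40 nt of exons that follow a junction held 1115 counts in the 10 mRNAs in DoHH-2, or 12.5 an exon, against 1.17 in the last 40 nt. In EIF4G2, no count of DoHH-2 lay between 142 and 86 nt upstream of the start codon, and exon 1 ends 87 nt upstream. A stretch without counts at the end of an exon is therefore not read here as free of eIF4B. The part of read mapping in it was not tested.

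Starts of mRNAs with a cytosine followed by pyrimidines mark TOP mRNAs, whose translation depends on mTOR signalling. A C followed by at least 4 pyrimidines opened 2 of the 10 MANE Select mRNAs, EIF4A2 and EIF4B, and 895 of 19061 coding MANE Select mRNAs (4.70%). Their first 20 nt are shown with the leading pyrimidines in capitals, from chr3:186783577-186783596 and chr12:53006456-53006475, both on the plus strand.
EIF4A2: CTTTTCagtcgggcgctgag
EIF4B: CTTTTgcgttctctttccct
The start of both was pyrimidine-rich. In DoHH-2, EIF4A2 held 338 exon counts over 1886 nt and EIF4B 129 over 3856 nt. A low count near the EIF4B start therefore does not show an absence of cross-links there. The first 50 nt held 44 counts in EIF4A2 and 1 in EIF4B in DoHH-2, and 0 in both in GM01953. That 0 depends on the annotated first base of EIF4A2. The base just upstream of it, position 186783576, on an exon of another transcript, held 4 of the 24 counts of GM01953 and 1 in DoHH-2.

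Genes that act beside these factors were counted in the same way. Of 12 further genes of the cap-binding complex and its neighbours, 10 had at least 20 counts in sum, and 2 of these were 2-fold higher in DoHH-2 and 0 in GM01953, where the shares of all coding genes were 24.3% and 14.2%. The 2 were EIF4E2, a relative of eIF4E, and PAIP1, with 132 and 36 counts in DoHH-2 and 1 each in GM01953. The interval of EIF4E2 ran from 1.91 to 432, and that of PAIP1, from 0.499 to 120.1, held 1. The most cross-linked of them was PABPC1, the poly(A)-binding protein, with 987 counts in DoHH-2, 105 in GM01953 and a ratio of 0.773 (0.632 to 0.955). The median ratio of the list was 1.33.

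Of 13 genes of the kinase pathways upstream of the eIF4 factors, all with at least 20 counts, 2 were 2-fold higher in each line, against the same 24.3% and 14.2%. In DoHH-2 these were MTOR, with 230 and 8 counts and a ratio of 2.36 (1.18 to 5.54), and MKNK1, with 64 and 2 counts and a ratio of 2.63 whose interval held 1 (0.699 to 22.2). AKT2, with 156 counts in DoHH-2 and 56 in GM01953, was 4.37 times higher in GM01953 (3.16 to 5.96), and RPS6KB2, an S6 kinase with 42 and 15 counts, 4.34 times (2.24 to 7.99). PIM2 was the most cross-linked of these genes in DoHH-2, with 592 counts, and MKNK2 in GM01953, with 76. The median ratio of the list was 1.06.

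Of 10 genes for proteins that bind eIF4B, 1 was 2-fold higher in DoHH-2 and 0 in GM01953, with a median ratio of 1.16. Of all coding genes 24.3% and 14.2% were. EIF3B, a subunit of the eIF3 complex, had 1376 counts in DoHH-2, 27 in GM01953 and a ratio of 4.19 (2.87 to 6.38). EIF3A, the eIF3 subunit with the most counts of this list in GM01953, had 854 and 56, a ratio of 1.25 (0.956 to 1.67). EIF4E2, PAIP1, MTOR, MKNK1 and RPS6KB2 were named after their values were seen.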

How the data were processed

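eIF4B iCLIP was carried out by the authors in DoHH-2 (4 replicates) and GM01953 (2 replicates). Per the methods, PCR duplicates were removed with BBMap and samples separated with Je. Reads were mapped with HiSat2 to GRCh38, and iCount gave the cDNA count of each cross-linked position from the pooled replicates. The deposited counts are whole numbers and were not normalised. The FDR of each position, a p-value adjusted by the peak caller, was also deposited by the authors and was used only as a threshold. Tool versions are not given in the sources used here. The 10 genes and the 3 lists of other genes were chosen with earlier results of these data known.

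Rows were taken by gene symbol, and each position was counted once per gene. Positions in the tables count from 0 and were raised by 1. They were placed on the MANE Select mRNA of GENCODE release 44, which held 98.8% of the gene identifiers of DoHH-2 and 99.2% of GM01953. Intervals were exact Poisson (levels), Clopper-Pearson (shares) and conditional binomial (ratios), computed with scipy 1.17.1. A ratio was called past 2-fold for genes with at least 20 counts in sum, with a floor of 3 counts where a line was at 0. With 1 pooled table a line no test between the lines was possible. The ratio step was tested on simulated data. All 10 genes are named, with the highest position of each with at least 5 counts. Of the other lists, genes past 2-fold with at least 20 counts (measured, or expected at the depth of GM01953) and the highest of each line are named. Dense stretches of 30 nt, aligned positions, mRNA starts, bases and junctions were described after the values were seen.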

Additional observations from a re-analysis of the deposited data

How the results depend on the processing

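No paired analysis was possible because the replicates of each line were pooled before deposit, and for the same reason leaving out a replicate was not run. The share held by the 10 genes moved with its denominator. It was 0.457% in DoHH-2 and 0.288% in GM01953 at positions with an FDR below 0.05 (ratio 1.59), 0.408 and 0.371% on MANE Select exons (ratio 1.10), 0.428 and 0.344% of counts in genes other than histone genes, 0.307 and 0.214% without the highest position of each gene (ratio 1.44), and 0.274% in DoHH-2 without positions listed for another gene, which removed EIF4A1. The ratio was 1.81 without EIF4G2, an alternative chosen after the data were seen. As a point value the ratio stayed above 1 in each of these. On MANE Select exons it lay below the interval of the main ratio (1.13 to 1.38), and no interval is given for it there. It is therefore not read as higher in DoHH-2 on exons.

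The number of the 10 genes at least 2-fold higher in DoHH-2 was 3 over distinct positions and 3 past 3-fold, and the number higher in GM01953 was 1 at positions with an FDR below 0.05 (EIF4B) and 1 past 1.5-fold (EIF4G2). With at least 10 counts in GM01953, 6.64% of coding genes were 2-fold higher in DoHH-2 and 26.8% in GM01953, since genes low in GM01953 were no longer tested. The 5 of the 10 genes were counted without that minimum. EIF4E and EIF4EBP1, with 1 and 4 counts in GM01953, do not reach it, while EIF4A1, EIF4A3 and EIF4H do. With a minimum of more than 10 counts, 4 of the 10 were bound in GM01953. No ratio of EIF4E was given on exons or at positions with an FDR below 0.05, where GM01953 held 0 counts, nor of EIF4A1 without shared positions.

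Region shares moved too. At positions with an FDR below 0.05, DoHH-2 had 14.8% in the 5′ UTR, 56.1% in the coding sequence, 24.2% in the 3′ UTR and 4.85% off exons, and GM01953 had 47.0% in the 5′ UTR and 30.6% in the coding sequence. Over distinct positions, DoHH-2 had 6.86% in the 5′ UTR, 20.8% in the 3′ UTR and 17.9% off exons, and GM01953 had 22.3% in the 5′ UTR and 51.5% in the coding sequence. With exons of any transcript, 11.5% of DoHH-2 counts were in the 5′ UTR and 5.32% off exons, and 6.60% were off exons in GM01953. Without EIF4G2, DoHH-2 had 4.64% in the 5′ UTR, 59.1% in the coding sequence and 15.2% off exons, and GM01953 had 5.02, 64.4 and 19.2%. Without EIF4G1, also chosen after the data were seen, the coding sequence held 45.6% in DoHH-2 and 32.3% in GM01953. As shares of summed density, codon regions of 25 nt gave DoHH-2 45.5% in the 5′ UTR and 26.6% at the start codon. Positions with an FDR below 0.05 gave DoHH-2 57.8% in the 5′ UTR, 11.3% in the coding sequence, 6.84% in the 3′ UTR and 3.41% at the stop codon, and GM01953 3.46% at the start codon, 2.29% in the coding sequence and 0% at the stop codon. Of the single-gene ratios, 50 of 58 stayed within the interval of the reported value and 8 moved outside it, and the cause was not tested. The ratio of EIF4B, not called in either direction, turned to higher in DoHH-2 over distinct positions and without its highest position, at log2 ratios of 0.32 and 0.11. The depth of GM01953, where 8 of the 10 genes held at most 26 counts, limits each ratio.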
